A study of Mus musculus with 6 samples.

Results

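The 10 genes described here encode adhesion molecules of the immunoglobulin superfamily that glia and axons carry on their surfaces. They are the L1 family (*L1cam*, *Chl1*, *Nrcam*, *Nfasc*), *Ncam1* and *Alcam*, and the 4 *Cadm* genes (*Cadm1*, *Cadm2*, *Cadm3*, *Cadm4*). They were chosen by name and found by Ensembl identifier among the 55401 genes of the count table, of which 22318 had enough reads to be tested, all 10 among them. The proteins reach out of the cell with immunoglobulin domains and bind the same or a related protein on the facing cell, while their tails hold on to ankyrins or scaffold proteins inside. In peripheral nerve they help Schwann cells (SCs) grip axons: L1CAM and NCAM1 mark immature and nonmyelinating SCs, CADM4 of the myelinating SC binds CADM3 of the axon, and neurofascin and NrCAM build the node of Ranvier.

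The study measured poly(A) RNA of primary SCs from dorsal root ganglia (DRGs) of adult mice by bulk RNA sequencing, to learn how SCs without the guidance receptor Plexin-B1 differ from controls. There were 3 WT and 3 *Plxnb1*−/− libraries, labeled as replicates and called cultures here, so the p-values below measure the spread between libraries. Whether each came from a separate culture or mouse is not stated. The strain was C57BL/6, and the mutant allele, *Plxnb1* tm1Matl, holds a gene trap with a transmembrane-lacZ-neo cassette. The sample labels call all 3 controls WT, although the methods also name heterozygous littermates as controls of the study. Cells of both genotypes grew with ascorbic acid, nonessential amino acids, FBS (10%), forskolin (2 µM), and neuregulin (10 nM), and fibroblasts were taken out by a magnetic antibody method against Thy1. The stated purity was above 80% at passages 3 to 5, and neither the sex nor the exact age of the mice is given. Total counts were 63883476, 59252048, and 70967747 for the WT libraries and 77280964, 72461964, and 69385956 for the mutant libraries, and here as below the 3 values of a genotype stand for its replicates 1, 2, and 3. Values are given as CPM, which are counts divided by library size after TMM normalization, and 3 counts correspond to between 0.0383 and 0.0513 CPM, a floor for counting error only. Counts of a member lay between 211 for *Nfasc* and 88005 for *Cadm4*, so every member was far above the floor in every library.

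*Plxnb1* itself measured 61.8, 45.4, and 96.4 CPM in the WT cultures and 13.1, 16.6, and 18.6 CPM in the mutants. All 3 mutant cultures lay below all 3 WT cultures, and reads remained in each mutant culture. The authors report that exons downstream of the trap cassette lost their expression in the mutant SCs. Counts per gene do not separate exons before the cassette from those after it, so the remaining reads were not placed. Its log2 fold change, *Plxnb1*−/− relative to WT, was −2.08 (SE 0.25, n = 3 per genotype; edgeR adjusted p = 0.0449). The edgeR call was lost without WT replicate 1 (adjusted p = 0.0886), *Plxnb1*−/− replicate 1 (0.255), replicate 2 (0.268), or replicate 3 (0.125), and with a filter at 1 CPM (0.108), robust dispersion (0.220), or limma on FPKM (0.414). In these fits the log2 fold change lay between −2.195 and −1.859. edgeR kept the call of *Plxnb1* without WT replicate 2 (adjusted p = 0.00169) or 3 (0.0337), with a replicate block (0.0271), and with genes of low count kept in (8.16e-06). Without both WT replicate 2 and *Plxnb1*−/− replicate 3, its log2 fold change was −2.41 (edgeR adjusted p = 0.00107, lower in 2 of 2 mutant cultures). DESeq2 called *Plxnb1* on all 6 libraries (log2 fold change −2.08, lower in 3 of 3 mutant cultures, adjusted p = 2.74e-06) and with any single library left out, with adjusted p between 4.98e-22 and 0.00148.

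A pair of libraries stood apart from the rest in genes other than the members. WT replicate 2 had the highest summed level of 10 fibroblast markers, 21290 CPM against 17260 and 17980 CPM in the other WT cultures. It also had the lowest summed level of 9 SC markers, 1922 CPM against 2230 and 2260 CPM. *Plxnb1*−/− replicate 3 differed in sex-linked genes. *Xist*, the RNA that silences an X chromosome in female cells, measured 241, 218, and 226 CPM in the WT cultures and 260.0, 237, and 11.6 CPM in the mutants. The Y-linked gene *Ddx3y* had 0 counts in every WT culture and measured 2.68, 3.57, and 77.6 CPM in the mutants. Mutant replicates 1 and 2 thus held *Ddx3y* at 3.46% and 4.60% of the level in replicate 3, beside *Xist* near the WT level. *L1cam* is the only X-linked member, and the part of sex in any difference below was not tested. Each member is therefore given with all 6 libraries and without these 2.

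Most of the members leaned toward slightly higher RNA in *Plxnb1*−/− SCs, and *Chl1* had the largest log2 fold change. Scaled to the library, 9 of 10 members had a log2 fold change above 0, against 51.5% of all tested genes, whereas scaled to the summed SC markers *Ncam1*, *Cadm1*, and *Cadm4* joined *Alcam* below 0, as did the median of all tested genes at −0.20. The median of the members was 0.22, against 0.005 over all tested genes, and it was 0.14 without WT replicate 2 and 0.11 without both libraries that stood apart. On the library scale, the mutant cultures lay wholly above the WT cultures for 4 members (*Chl1*, *Nrcam*, *Cadm2*, *Cadm3*), against 9.29% of all tested genes. On the SC marker scale they did so for *Chl1* alone, against 1.62% of all tested genes. They lay wholly below for 0 members on the library scale, against 10.4% of all tested genes, and for 3 on the SC marker scale, against 33.5%. Calls required an adjusted p under 0.05 together with a log2 fold change beyond 0.25 in either direction. edgeR called 0 of 10 members and 0.0358% of all tested genes, while 5 members (*L1cam*, *Chl1*, *Nrcam*, *Cadm2*, *Cadm3*) and 13.7% of all tested genes had an unadjusted p below 0.05. DESeq2 called 1 member, *Chl1*, against 1.50% of all tested genes in either direction and 0.690% higher in mutants. Without WT replicate 1, DESeq2 called 3 members, as *L1cam* (log2 fold change 0.29, adjusted p = 0.0400) and *Nrcam* (0.36, adjusted p = 0.0107) joined *Chl1* among 938 called genes. Nothing particular to the 10 genes follows from these counts.

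The 4 genes of the L1 family had a median log2 fold change of 0.27, against 0.19 for the 4 *Cadm* genes, or 0.15 and 0.11 without both libraries that stood apart. *Chl1*, the close homolog of L1, promotes neurite growth and is made by SCs as well as neurons. It measured 356, 284, and 326 CPM in the WT cultures (mean 322 ± 36.3, SD) and 414, 427, and 479 CPM in the mutants (mean 440 ± 34.4, SD). Every mutant culture was above every WT culture, with the highest value in mutant replicate 3 and the lowest in WT replicate 2. The log2 fold change was 0.45 (SE 0.085, n = 3 per genotype), a fold of 1.37. edgeR gave an unadjusted p of 0.000515 and an adjusted p of 0.228, so *Chl1* did not pass its test. DESeq2 gave an adjusted p of 0.000226 for a log2 fold change of 0.45, higher in 3 of 3 mutant cultures, and by that test *Chl1* rose. DESeq2 kept the call of *Chl1* with any single library left out, with adjusted p from 1.87e-06 without WT replicate 1 to 0.0363 without *Plxnb1*−/− replicate 3. Without both WT replicate 2 and *Plxnb1*−/− replicate 3, *Chl1* had a log2 fold change of 0.31 (edgeR adjusted p = 0.140) or 0.30 (DESeq2 adjusted p = 0.00100), higher in 2 of 2 mutant cultures. Among the edgeR alternatives, *Chl1* was called only when genes with low counts were kept (log2 fold change 0.45, adjusted p = 0.00555). Over the other edgeR and limma alternatives its adjusted p lay between 0.0997 and 0.656.

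*Nrcam*, whose protein gathers sodium channels at nodes, showed the same order of genotypes as *Chl1* with a smaller gap. It measured 177, 134, and 169 CPM in the WT cultures and 186, 192, and 207 CPM in the mutants. The genotypes did not overlap, although WT replicate 1 came close to mutant replicate 1. Its log2 fold change was 0.28 (SE 0.095, n = 3 per genotype; adjusted p = 0.295 by edgeR and 0.0979 by DESeq2), and it was 0.17 without WT replicate 2 and 0.13 without both libraries that stood apart. *L1cam*, the founding member and an adhesion molecule of axons and nonmyelinating SCs, measured 388, 299.5, and 367 CPM in the WT cultures and 377, 419.8, and 427 CPM in the mutants. Here the genotypes overlapped, since WT replicate 1 exceeded mutant replicate 1, and WT replicate 2 was again the lowest. The log2 fold change of *L1cam* was 0.21 (SE 0.092, n = 3 per genotype; adjusted p = 0.355 by edgeR and 0.218 by DESeq2), and it was 0.11 without WT replicate 2 and 0.08 without both. *Nfasc*, whose glial form joins the myelin loops to the axon beside the node, was scarce. It measured 4.38, 3.60, and 3.43 CPM in the WT cultures and 4.09, 4.64, and 4.92 CPM in the mutants. The genotypes overlapped because WT replicate 1 was above mutant replicate 1. *Nfasc* had a log2 fold change of 0.26 (SE 0.12; adjusted p = 0.396 by edgeR and 0.367 by DESeq2), which lay between 0.19 without WT replicate 3 and 0.37 without WT replicate 1, and was 0.17 without both libraries that stood apart.

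**Figure D1:**
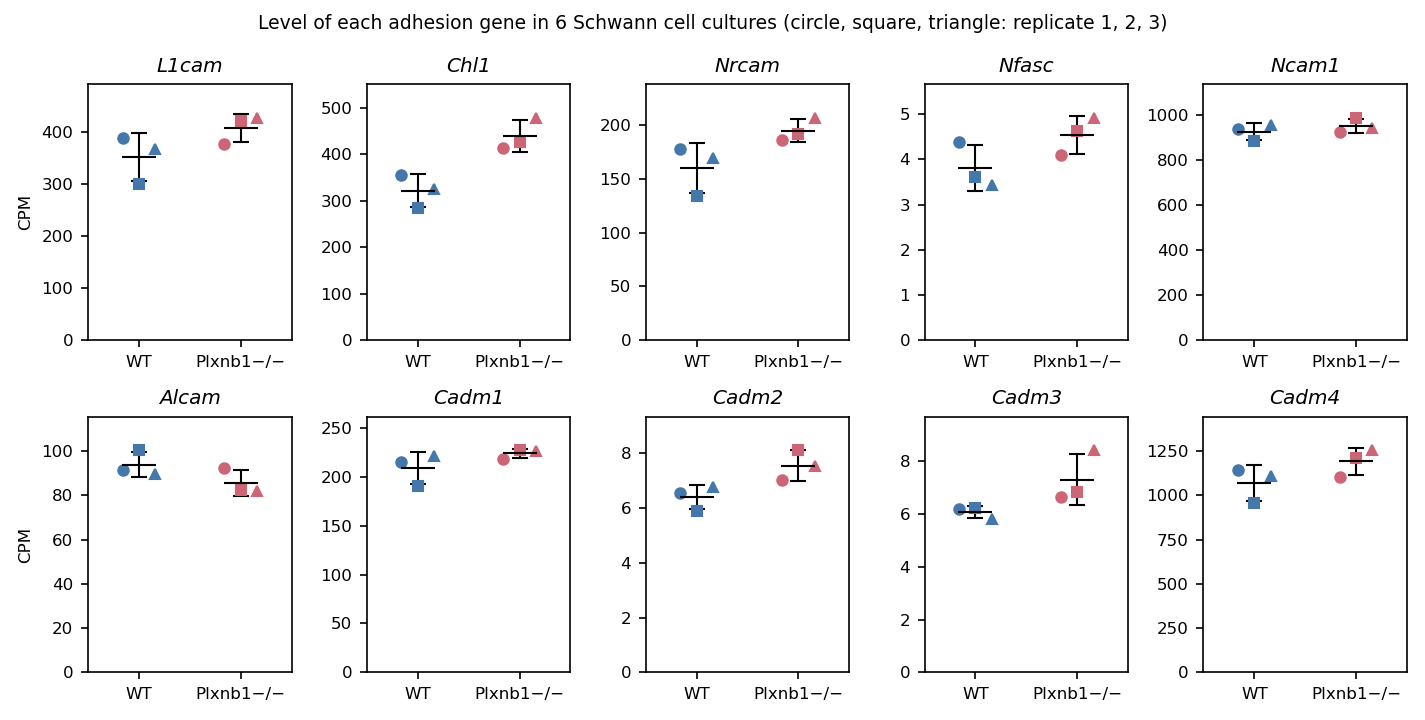
Level of each member in CPM (vertical axes, linear from 0) in the WT and *Plxnb1*−/− cultures, with a point per culture, a bar at the mean, and whiskers of 1 SD over n = 3. The genotypes do not overlap for *Chl1* (284 to 356 against 414 to 479 CPM), *Nrcam*, *Cadm2*, and *Cadm3*, and they overlap for the other 6 genes.

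Within the L1 family, *Chl1* stood higher in mutants relative to *L1cam* and *Nrcam*, but its ratio to *Nfasc* overlapped between genotypes. Per kb of exon, *Chl1* stood at 0.548, 0.566, and 0.531 of the level of *L1cam* in the WT cultures and at 0.656, 0.608, and 0.670 in the mutants. Every mutant ratio exceeded every WT ratio. The ratio of *Chl1* to *Nrcam* behaved alike, with 2.18, 2.30, and 2.10 in WT and 2.42, 2.42, and 2.52 in the mutants. Relative to *Nfasc*, *Chl1* stood at 93.6, 90.6, and 109 in WT and at 116, 106.0, and 112.0 in the mutants, with WT replicate 3 above mutant replicate 2. These ratios were formed after the values had been seen and were not tested.

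*Chl1* and *Nrcam* were the members of the L1 family whose genotypes lay apart, so their promoters are shown side by side. The sequences are from RefSeq (GRCm38.p6), each 300 bases around the start of the gene as RefSeq gives it, and a match to a motif is a description, not a site. The promoter of *Chl1* lies at chr6:103510626-103510925 on the plus strand, and that of *Nrcam* at chr12:44328635-44328934 on the plus strand. By the annotated gene spans given below, the *Chl1* stretch lies wholly inside the gene, while the *Nrcam* stretch crosses the start of its gene. The stretches are thus not alike in position, and the marked CTTTGT of *Chl1* is not upstream of that span. Capitals mark ACAAAG, a core bound by Sox factors, in *Chl1*, where it lies on the other strand and reads CTTTGT, and GGGCGG, the GC box (CCGCCC on the other strand), in *Nrcam*.
Chl1: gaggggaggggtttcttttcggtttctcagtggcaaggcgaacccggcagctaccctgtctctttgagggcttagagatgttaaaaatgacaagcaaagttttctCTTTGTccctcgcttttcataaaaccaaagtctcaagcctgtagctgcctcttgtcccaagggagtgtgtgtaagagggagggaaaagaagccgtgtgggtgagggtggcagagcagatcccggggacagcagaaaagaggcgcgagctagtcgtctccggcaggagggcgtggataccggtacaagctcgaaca
Nrcam: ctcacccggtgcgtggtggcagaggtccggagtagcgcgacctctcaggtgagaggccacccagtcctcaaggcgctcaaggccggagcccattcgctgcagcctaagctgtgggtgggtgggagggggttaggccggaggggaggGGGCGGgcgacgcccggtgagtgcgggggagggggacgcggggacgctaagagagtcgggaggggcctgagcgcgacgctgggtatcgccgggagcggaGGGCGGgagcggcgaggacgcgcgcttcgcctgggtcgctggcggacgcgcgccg

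The promoters of *Chl1* and *Nrcam* had little in common in base composition. *Chl1* had 53.7% GC and 13 CG dinucleotides, near the median of 52.7% and above the median of 7 over all 32851 promoters, whereas *Nrcam* had 74.0% GC and 37 CG dinucleotides. *Chl1* held 1 ACAAAG and 0 GGGCGG, and *Nrcam* held 2 GGGCGG and 0 ACAAAG. Promoters were found for 8 of 10 members, with 10 entries in all, and none for *Ncam1* or *Cadm1*. As with *Chl1*, the entries of *Alcam*, *L1cam*, and *Nfasc* lie wholly inside the annotated gene spans, while those of the other members cross the start. On either strand, GGGCGG was present in 7 of the 10 entries (*Alcam*, *Cadm2*, *Cadm4*, *L1cam*, *Nfasc*, *Nrcam*), against 35.7% of all promoters. Both entries of *L1cam* are among these 7, and they overlap, so a match that they share was counted in each. CCAAT was present in 4 (*Alcam*, *Cadm2*, *L1cam*, *Nfasc*), against 37.4%, and TATAAA in 0, against 13.6%. *Chl1* was the only member with ACAAAG, which 18.7% of all promoters hold. *Cadm4* alone held ACAATG, another Sox core, which 12.6% of all promoters hold, and *Cadm2* alone held CACGTG, an E box, which 7.15% hold.

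*Ncam1*, the neural cell adhesion molecule of immature SCs, differed between genotypes by less than the spread between cultures. It measured 941.3, 887, and 957 CPM in the WT cultures (mean 928 ± 37.0, SD) and 927, 989.5, and 946 CPM in the mutants (mean 954 ± 31.9, SD). The genotypes were interleaved, with WT replicate 2 lowest and mutant replicate 2 highest. Its log2 fold change was 0.04 (SE 0.047, n = 3 per genotype; adjusted p = 0.754 by edgeR and 0.802 by DESeq2), the smallest in size among the members, and it was 0.01 without WT replicate 2 or *Plxnb1*−/− replicate 2, 0.06 without WT replicate 3, and 0.02 without both libraries that stood apart. *Alcam*, which binds itself and guides axon bundles, was the only member with less RNA in mutants on the library scale. It measured 91.7, 100.5, and 89.7 CPM in the WT cultures and 92.3, 82.7, and 81.8 CPM in the mutants. WT replicate 2 was the highest and mutant replicates 2 and 3 the lowest, while mutant replicate 1 sat among the WT cultures. The log2 fold change of *Alcam* was −0.13 (SE 0.062, n = 3 per genotype; adjusted p = 0.381 by edgeR and 0.358 by DESeq2), and it was −0.08 without WT replicate 2 and −0.05 without both. Neither gene passed the test of edgeR or DESeq2.

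The *Cadm* genes encode nectin-like molecules that pair axon with glia, and all 4 had fold changes above 0 on the library scale, with *Cadm1* and *Cadm4* below 0 on the SC marker scale, where the median of all tested genes was −0.20. *Cadm4*, the main form of the myelinating SC, measured 1145, 956, and 1110.0 CPM in the WT cultures and 1106, 1214, and 1256 CPM in the mutants. The genotypes overlapped, with mutant replicate 1 below 2 of the WT cultures and WT replicate 2 lowest of all. Its log2 fold change was 0.15 (SE 0.075; adjusted p = 0.396 by edgeR and 0.321 by DESeq2), and it was 0.08 without WT replicate 2 and 0.05 without both libraries that stood apart. *Cadm3*, the axonal partner of *Cadm4*, was present at a low level. It measured 6.19, 6.20, and 5.82 CPM in the WT cultures and 6.65, 6.81, and 8.41 CPM in the mutants. The genotypes lay apart, but mutant replicate 3 carried much of the gap. The log2 fold change of *Cadm3* was 0.26 (SE 0.10; adjusted p = 0.332 by edgeR and 0.244 by DESeq2), and it was 0.15 without *Plxnb1*−/− replicate 3 and 0.17 without both.

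*Cadm1* and *Cadm2*, best known from synapses and present on axons, differed in the same direction on the library scale, while *Cadm1* stood at −0.10 on the SC marker scale, or 0.10 relative to the median of all genes. *Cadm2* measured 6.55, 5.89, and 6.76 CPM in the WT cultures and 7.003, 8.11, and 7.51 CPM in the mutants. The cultures of the genotypes did not overlap. Its log2 fold change was 0.23 (SE 0.091; adjusted p = 0.324 by edgeR and 0.253 by DESeq2), and it was 0.19 without both libraries that stood apart. *Cadm1* measured 215, 190.4, and 221 CPM in the WT cultures and 218, 227, and 226 CPM in the mutants. WT replicate 2 was the lowest, and the other 5 cultures were close together. The log2 fold change of *Cadm1* was 0.10 (SE 0.059; adjusted p = 0.492 by edgeR and 0.509 by DESeq2), and it was 0.04 without WT replicate 2 and 0.03 without both. None of the 4 *Cadm* genes passed the test of edgeR or DESeq2.

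The members spanned a wide range of levels, which were compared as CPM per kb of exon. The counts hold no reads placed across introns and no duplicates, and the part of both in the order of levels was not tested. *Cadm4* was by far the most abundant, with a mean of 523 ± 48.2 CPM per kb (SD, n = 6), the place of 27 among 22280 tested genes with a known exon length. *Ncam1* followed at 109 ± 3.92 CPM per kb (rank 367), then *L1cam* at 51.7 ± 6.24 (rank 990). *Chl1* stood at 31.0 ± 5.84 CPM per kb and *Cadm1* at 20.7 ± 1.29. The 3 leading genes are thus the glial *Cadm4* and both markers of immature SCs, *Ncam1* and *L1cam*. *Nrcam* at 13.3 ± 1.86 CPM per kb and *Alcam* at 12.6 ± 0.970 had overlapping ranges, and *Nrcam* was the higher of the pair in 5 of 6 libraries. A gap of 13.7-fold separated *Alcam* from the 3 scarce members. *Cadm3* at 0.922 ± 0.127 CPM per kb was above *Cadm2* at 0.711 ± 0.0787 in 6 of 6 libraries, though their ranges over the libraries overlapped. *Nfasc* was lowest at 0.295 ± 0.0411 CPM per kb (rank 16699).

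Neighbors in this order were otherwise apart, with no overlap of their ranges over the 6 libraries. The steps in mean level per kb were 4.82-fold from *Cadm4* to *Ncam1*, 2.10-fold from *Ncam1* to *L1cam*, 1.67-fold from *L1cam* to *Chl1*, 1.50-fold from *Chl1* to *Cadm1*, 1.56-fold from *Cadm1* to *Nrcam*, and 2.41-fold from *Cadm2* to *Nfasc*. The glial *Cadm4* exceeded its axonal partner *Cadm3* between 501-fold and 640.1-fold per kb over the 6 libraries. Within the L1 family, *L1cam* exceeded *Nfasc* between 160.0-fold and 206-fold. By the means of each genotype, the order differed only in the pair *Nrcam* and *Alcam*, at 11.99 and 13.2 CPM per kb in WT and 14.6 and 12.02 in *Plxnb1*−/− cultures. That reversal rested on WT replicate 2 (10.02 against 14.1), since *Nrcam* was the higher in WT replicates 1 (13.3 against 12.9) and 3 (12.67 against 12.60). The deposited FPKM values divide by the span of the gene with its introns, in 99.5% of 16712 genes to within 1%, and they put *L1cam* (mean 8.98 FPKM) above *Ncam1* (3.17) and *Nfasc* (0.0236) above *Cadm2* (0.00722). The span ran from 22.5 kb for *Cadm4* to 965.5 kb for *Cadm2*, while the exons ran from 2.16 kb for *Cadm4* to 14.1 kb for *Nfasc*.

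**Figure D2:**
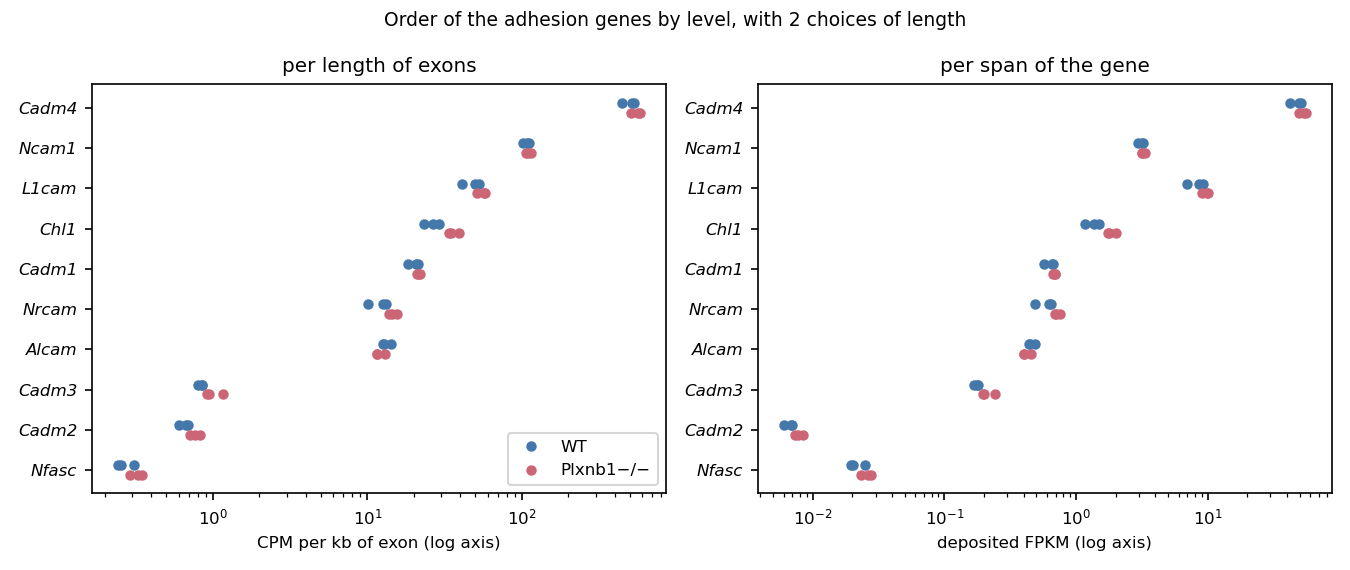
Level of each member in CPM per kb of exon (log axis, left) and in deposited FPKM, which divide by the span of the gene (log axis, right), with a point for each library of WT and *Plxnb1*−/− SCs. *Cadm4* lies highest at a mean of 523 CPM per kb or 50.3 FPKM, and *Nfasc* is lowest per kb of exon (0.295) but above *Cadm2* in FPKM.

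Marker levels of cell types also differed between the cultures of the genotypes, and in bulk RNA fewer cells of a type and less RNA per cell cannot be told apart. The 9 SC markers summed to 2230.0, 1922, and 2260.0 CPM in the WT cultures and 2312, 2498, and 2564 CPM in the mutants. All mutant cultures were above all WT cultures, by 0.20 on the log2 scale of the means, or 0.13 without WT replicate 2. Of these 9 genes, 8 were higher and 1 lower in mutants, with a median log2 fold change of 0.19. The SC label held for *Sox10*, the lineage factor of SCs, at 503, 432, and 524 CPM in the WT cultures and 507, 564, and 580 CPM in the mutants, whereas *S100b* was low in all 6 libraries, between 7.09 and 8.22 CPM. The 10 fibroblast markers summed to 17260, 21290, and 17980 CPM in the WT cultures and 15800, 16550, and 16110 CPM in the mutants, with the collagen gene *Col1a1* most abundant. All mutant cultures were below all WT cultures, 9 of the 10 genes were lower, and the median log2 fold change was −0.19, or −0.10 without WT replicate 2. *Thy1*, the antigen used to take out fibroblasts, measured 429, 652, and 490 CPM in the WT cultures and 409.6, 409, and 384 CPM in the mutants. The part of these shifts in the differences of the members was not tested.

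The summed SC markers also served as a scale of their own, chosen after seeing the data and used without a test. On that scale the median over all tested genes moved from 0.005 to −0.20, so log2 ratios are also given relative to it. Subtracting that median returns nearly the values of the library scale, so they are no separate measurement. *Chl1* measured 160, 148, and 144 CPM per 1000 CPM of SC markers in the WT cultures and 179, 171, and 187 in the mutants. It was the only member whose mutant cultures all remained above the WT cultures, at a log2 ratio of 0.25, or 0.45 relative to the median of all genes, and 1.62% of all tested genes did so. *Ncam1* measured 422, 461, and 424 in WT and 401, 396, and 369 in the mutants. *Ncam1* (log2 ratio −0.16), *Cadm1* (−0.10), and *Cadm4* (−0.05) lay wholly below the WT cultures, as did 33.5% of all tested genes, and relative to the median of all genes they stood at 0.04, 0.10, and 0.15. The other 6 members overlapped between genotypes, with log2 ratios of 0.02 for *L1cam*, 0.09 for *Nrcam*, 0.05 for *Nfasc*, −0.34 for *Alcam*, 0.03 for *Cadm2*, and 0.05 for *Cadm3*. Relative to the median of all genes these were 0.22, 0.29, 0.25, −0.14, 0.23, and 0.25.

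**Figure D3:**
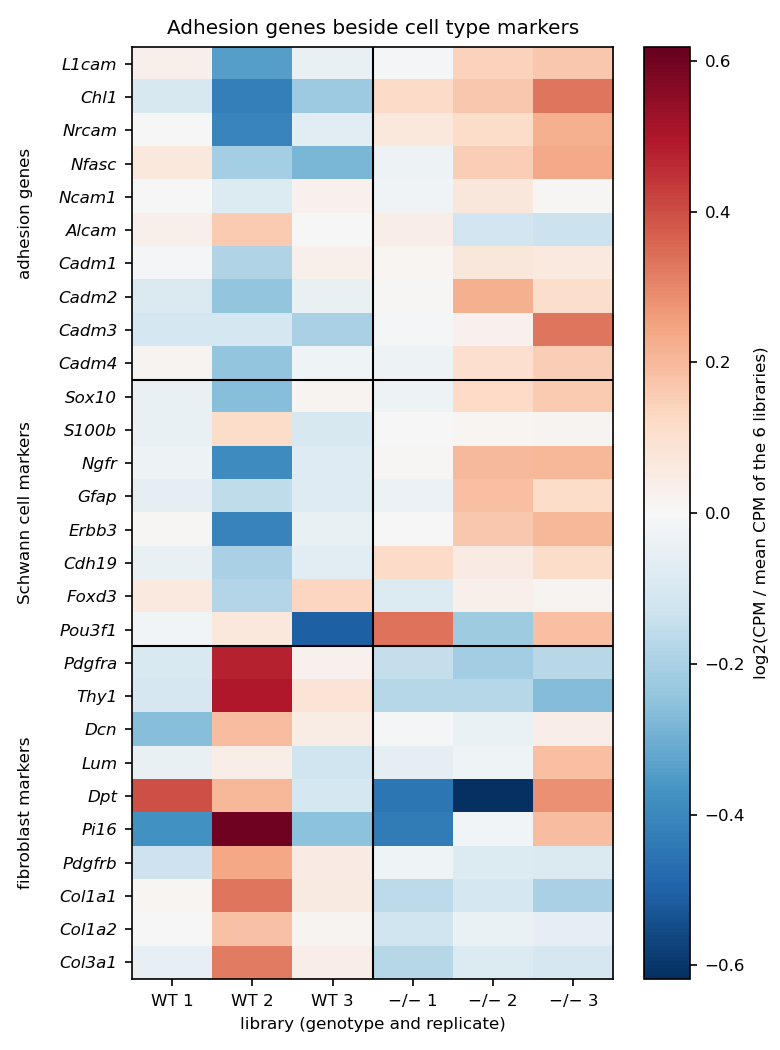
CPM of the members, 8 of the 9 SC markers, and the fibroblast markers in each library (columns, WT and *Plxnb1*−/− replicates), as color on a log2 scale relative to the mean CPM of that gene over the 6 libraries. WT replicate 2 is low for most members and SC markers (1922 CPM as the sum of all 9) and high for the fibroblast markers (sum 21290 CPM), and on the SC marker scale *Ncam1*, *Cadm1*, and *Cadm4* would lie below 0 in mutants, with the median of all tested genes at −0.20.

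Other cell types of the ganglion were covered by 6 further lists. The 4 satellite glia markers, led by *Kcnj10*, summed to between 763 and 883 CPM in the WT cultures and between 906 and 933 CPM in *Plxnb1*−/− cultures, with 3 higher, 1 lower, and a median log2 fold change of 0.04 (0.16 without WT replicate 1 and 0.0099 without WT replicate 2). The 18 DRG neuron markers, led by the tubulin gene *Tubb3*, summed to between 178 and 191 CPM in the WT cultures and between 194 and 231 CPM in *Plxnb1*−/− cultures, with 17 higher, 1 lower, and a median of 0.37. Much of that difference came from *Plxnb1*−/− replicate 3, without which the median was 0.12 and the log2 ratio of the mean sums went from 0.17 to 0.09. The nuclear neuron marker *Rbfox3* lay between 0.307 and 0.736 CPM in all 6 libraries. Macrophage markers, led by *Lyz2*, summed to between 105 and 128 CPM in the WT cultures and between 139.9 and 152 CPM in *Plxnb1*−/− cultures, with 7 of 7 higher and a median of 0.27. Perineurial markers, led by *Itgb4*, summed to between 213 and 219 CPM in the WT cultures and between 229 and 262 CPM in *Plxnb1*−/− cultures, with 2 of 3 tested genes higher and a median of 0.30 (0.15 without WT replicate 1 and 0.14 without *Plxnb1*−/− replicate 1), and *Lypd2* had no count in any library. Mutant cultures were wholly above WT cultures in all 4 of these sums. The 5 endothelial markers, led by *Cdh5*, summed to between 63.7 and 83.1 CPM in the WT cultures and between 67.8 and 74.0 CPM in mutants, with 2 higher and a median of −0.06 (between −0.15 without WT replicate 1 and 0.02 without WT replicate 2), and the 6 pericyte and smooth muscle markers, led by *Rgs5*, to between 119 and 144 CPM in the WT cultures and between 125 and 158 CPM in mutants, with 5 higher and a median of 0.11 (between −0.06 without *Plxnb1*−/− replicate 3 and 0.22 without *Plxnb1*−/− replicate 1). Both of these sums overlapped between genotypes.

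No marker gene passed the test of edgeR, which called 0 of 62 tested markers, 22 with an unadjusted p below 0.05, against 13.7% of all tested genes. DESeq2 called 4 of the 62, against 1.50%. *Lyz2*, the lysozyme gene of macrophages, had a log2 fold change of 0.35 (higher in 3 of 3 mutant cultures, DESeq2 adjusted p = 0.00595), and *Cx3cr1*, the fractalkine receptor, 0.49 (higher in 3 of 3, DESeq2 adjusted p = 0.0497). *Itgb4* had a log2 fold change of 0.42 (higher in 3 of 3, DESeq2 adjusted p = 0.00706), and *Col1a1* one of −0.30 (lower in 3 of 3, DESeq2 adjusted p = 0.0258). None of these 4 calls held in all 6 DESeq2 fits that left out a library. The calls of *Lyz2* and *Itgb4* were lost without *Plxnb1*−/− replicate 2 (adjusted p = 0.117 and 0.0699) or replicate 3 (0.0619 and 0.249). The call of *Col1a1* was lost without *Plxnb1*−/− replicate 1 (0.110), 2 (0.121), or 3 (0.376), and also without WT replicate 2, where the log2 fold change shrank to −0.19 and fell short of 0.25 in size (adjusted p = 0.00968). The call of *Cx3cr1* was kept only without WT replicate 1 (0.0346), with adjusted p of 0.307 and 0.170 without WT replicates 2 and 3 and of 0.204, 0.301, and 0.0633 without *Plxnb1*−/− replicates 1, 2, and 3.

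The members work through partners, and 51 of these, all tested, were followed in 5 lists. edgeR called 0 of the 51, of which 7 had an unadjusted p below 0.05, and DESeq2 called 2, against 0.0358%, 13.7%, and 1.50% of all tested genes. The 11 binding partners and receptors had 8 genes higher and 3 lower in mutants, with a median log2 fold change of 0.22, or 0.13 without *Plxnb1*−/− replicate 3. Their genotypes lay apart upward for 3 and downward for 1, and the same counts below stand against 9.29% upward and 10.4% downward of all tested genes. *Cntn1*, contactin, which NrCAM and neurofascin bind at the axon, measured 3.00, 1.47, and 2.32 CPM in the WT cultures and 2.81, 3.10, and 3.81 CPM in the mutants. The genotypes overlapped, and its log2 fold change of 0.51 was 0.29 without WT replicate 2 (edgeR adjusted p = 0.370 with all libraries, higher than the WT mean in 3 of 3 mutant cultures), and DESeq2 called it only without WT replicate 1 (0.77, adjusted p = 0.0254). *Fgfr1*, a receptor that NCAM1 and L1CAM engage, measured 559, 601, and 557 CPM in the WT cultures and 539.7, 544, and 516 CPM in the mutants. All mutant cultures were below all WT cultures, with a log2 fold change of −0.10 (edgeR adjusted p = 0.380), or −0.06 without WT replicate 2 and −0.04 without both libraries that stood apart. *Prnp*, the prion protein gene and the most abundant gene of this list at 182 CPM per kb, had a log2 fold change of 0.11 (0.16 without *Plxnb1*−/− replicate 1), and the paranodal *Cntnap1* one of −0.01 (0.01 without WT replicate 2 and 0.04 without *Plxnb1*−/− replicate 1). *Ncan*, neurocan, a proteoglycan ligand of NCAM1 and L1CAM, had a log2 fold change of 0.36, or 0.18 without WT replicate 2.

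The membrane skeleton held both partner genes that DESeq2 called. *Ank3*, ankyrin G, which anchors the tails of the L1 family, measured 115.5, 94.6, and 113 CPM in the WT cultures and 128, 139, and 147 CPM in the mutants. *Shtn1*, shootin, which couples L1CAM to actin flow, measured 54.3, 43.3, and 53.1 CPM in the WT cultures and 58.6, 70.5, and 73.6 CPM in the mutants. Both genes lay higher in every mutant culture than in any WT culture, with WT replicate 2 lowest. *Ank3* had a log2 fold change of 0.36 (edgeR adjusted p = 0.266) and, by DESeq2, 0.35 (adjusted p = 0.00697), a call lost without *Plxnb1*−/− replicate 2 (0.102) or 3 (0.265). *Shtn1* had a log2 fold change of 0.43 (edgeR adjusted p = 0.266, DESeq2 adjusted p = 0.00738), and the DESeq2 call was lost without *Plxnb1*−/− replicate 2 (0.138) or 3 (0.296). With genes of low count kept in, edgeR called *Ank3* (adjusted p = 0.0203) and *Shtn1* (0.0211). The list as a whole did not lean upward, with 11 of 24 genes higher, 13 lower, a median of −0.02 (between −0.03 without WT replicate 3 and 0.02 without WT replicate 2), and the genotypes apart upward for 4 and downward for 2. *Farp1*, a scaffold that binds the tail of CADM1, was among the lower ones, with a log2 fold change of −0.26 (lower in 3 of 3 mutant cultures, adjusted p = 0.273 by edgeR and 0.0505 by DESeq2), or −0.16 without WT replicate 2, and a DESeq2 call without WT replicate 1 (adjusted p = 0.00808). *Msn*, moesin, which links membrane proteins to actin, was the most abundant at 230.1 CPM per kb, with a log2 fold change of −0.02 (between −0.04 without WT replicate 3 and −0.01 without WT replicate 2), and *Ank1* had one of −0.17, or −0.09 without WT replicate 1.

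Genes whose enzymes modify or cut the members followed, and neither edgeR nor DESeq2 called any of them on all 6 libraries. Among 5 glycan enzymes, 4 were higher and 1 lower, with a median log2 fold change of 0.04 (between 0.01 without *Plxnb1*−/− replicate 1 and 0.07 without WT replicate 1) and 1 apart upward. *B3gat1*, which makes the HNK-1 sugar carried by L1CAM and NCAM1, measured 1.05, 0.512, and 0.861 CPM in the WT cultures and 1.26, 1.16, and 1.30 CPM in the mutants. Its genotypes did not overlap. With all libraries the log2 fold change of *B3gat1* was 0.61 (adjusted p = 0.324 by edgeR and 0.229 by DESeq2, higher in 3 of 3 mutant cultures). Without WT replicate 2 it was 0.38 (adjusted p = 0.573 by edgeR and 0.84 by DESeq2). *St8sia2*, which adds polysialic acid to NCAM1, had a log2 fold change of −0.10 (−0.20 without *Plxnb1*−/− replicate 1, −0.05 without replicate 2, and −0.07 without replicate 3), and *B3gat2*, the most abundant enzyme of the list per kb, one of 0.04 (0.01 without *Plxnb1*−/− replicate 1 and 0.03 without WT replicate 3). Among 7 protease genes, 5 were higher and 2 lower, with a median of 0.05 (−0.01 without WT replicate 1 and 0.03 without *Plxnb1*−/− replicate 3) and 2 apart upward. *Adam10*, which sheds L1CAM and other members from the surface, was the most abundant protease at 118 CPM per kb and measured 594, 467, and 565 CPM in the WT cultures and 638, 615, and 606 CPM in the mutants. Every mutant culture lay above every WT culture, and the log2 fold change was 0.19 (adjusted p = 0.348 by edgeR and 0.224 by DESeq2). Without WT replicate 2 it was 0.10 (edgeR adjusted p = 0.537), and DESeq2 called *Adam10* only without WT replicate 1 (0.26, adjusted p = 0.0368). *Adam17* had a log2 fold change of 0.08 (0.05 without WT replicate 2) and *Bace1* one of −0.01 (0.01 without WT replicate 3). All 4 signalling genes lay above 0 with a median of 0.05 (0.035 without *Plxnb1*−/− replicate 2) and 1 apart upward, from *Fyn*, the kinase downstream of NCAM1, at 0.01 (−0.0060 without *Plxnb1*−/− replicate 3 and, by DESeq2, −0.00098 without WT replicate 1) and *Src* at 0.05 to *Ptpra* at 0.06 and *Gap43* at 0.22, or 0.06 for *Gap43* without *Plxnb1*−/− replicate 3 and 0.14 without WT replicate 1. *Src* lay between 0.01 without WT replicate 2 or *Plxnb1*−/− replicate 2 and 0.08 without WT replicate 3 or *Plxnb1*−/− replicate 1.

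Taking the 51 partners as a whole, 32 were higher and 19 lower in mutants, with a median log2 fold change of 0.03 (0.05 without *Plxnb1*−/− replicate 1) against 0.005 over all tested genes. Their genotypes lay apart upward for 11 and downward for 3, against 9.29% and 10.4% of all tested genes.

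A further 37 adhesion genes with immunoglobulin domains were read beside the members, and 33 of them were tested. *Cntn4*, *Cntn5*, *Dscam*, and *Dscaml1* had too few reads. Of the 33, 20 were higher and 13 lower, with a median log2 fold change of 0.10, or 0.04 without WT replicate 2 and 0.06 without *Plxnb1*−/− replicate 3. The genotypes lay apart upward for 4 and downward for 4, against 9.29% and 10.4% of all tested genes. edgeR called 0 of the 33, of which 9 had an unadjusted p below 0.05, and DESeq2 called 3, against 0.0358%, 13.7%, and 1.50% of all tested genes. *Negr1*, a GPI-anchored molecule of the IgLON family, measured 6.89, 5.04, and 6.47 CPM in the WT cultures and 7.63, 9.60, and 10.4 CPM in the mutants. *Esam*, found at endothelial junctions, measured 3.86, 3.40, and 3.18 CPM in the WT cultures and 2.03, 2.26, and 2.52 CPM in the mutants. *Cxadr*, a junction protein and virus receptor, measured 2.30, 3.45, and 1.81 CPM in the WT cultures and 1.42, 1.46, and 1.50 CPM in the mutants. The mutants were wholly higher for *Negr1* and wholly lower for *Esam* and *Cxadr*, with WT replicate 2 at the far end for *Negr1* and *Cxadr*.

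*Negr1* had a log2 fold change of 0.58 (edgeR adjusted p = 0.273, DESeq2 adjusted p = 0.00969), and DESeq2 lost the call without WT replicate 2 (0.0787) or *Plxnb1*−/− replicate 2 (0.147) or 3 (0.338). *Esam* had a log2 fold change of −0.62 by DESeq2 (adjusted p = 0.0120, against 0.261 by edgeR at −0.61). Its DESeq2 call was kept only without WT replicate 3 (0.0313) and lost without WT replicate 1 (0.0522) or 2 (0.0655) and without *Plxnb1*−/− replicate 1 (0.0828), 2 (0.0976), or 3 (0.0511). *Cxadr* had a log2 fold change of −0.78 (edgeR adjusted p = 0.273, DESeq2 adjusted p = 0.0442), and −0.49 without WT replicate 2, where the DESeq2 adjusted p was 0.490. The call of *Cxadr* was also lost without *Plxnb1*−/− replicate 1 (0.162), 2 (0.227), or 3 (0.361). With genes of low count kept in, edgeR called *Negr1* (adjusted p = 0.0335) and *Esam* (0.0380). Apart from *Plxnb1*, of the members, partners, markers, and other immunoglobulin genes that DESeq2 called, only *Chl1* kept its call whichever of the 6 libraries was left out. *Ncam2*, the relative of *Ncam1*, had a log2 fold change of 0.39 (higher in 3 of 3 mutant cultures, adjusted p = 0.273 by edgeR and 0.0528 by DESeq2), and DESeq2 called it only without WT replicate 3 (0.48, adjusted p = 0.0290). *Bsg*, basigin, was the most abundant of the other immunoglobulin genes at 275 CPM per kb, below *Cadm4*, with a log2 fold change of −0.03 (between −0.05 without *Plxnb1*−/− replicate 2 and −0.0016 without *Plxnb1*−/− replicate 1).

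For the most abundant member of each family, the genes with the most similar pattern were sought by Pearson's r of log2 CPM over the 6 libraries among 14991 genes, as a description that rests on few libraries. *L1cam* was most similar to *Mmp15* (r = 0.999), *Gm16596* (0.999), and *Sox2ot* (0.998). *Ncam1* was most similar to *Adgrg1* (r = 0.995), *Supt5* (0.991), and *Gamt* (0.990). *Cadm4* was most similar to *Gm2065* (r = 0.999), *Thsd4* (0.998), and *Ivd* (0.998). The genes found for each of these 3 members were different ones.

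The members lie on 7 chromosomes, and 3 pairs of them share one. On GRCm38, *Chl1* (ENSMUSG00000030077) spans chr6:103510586-103750211 on the plus strand, *Nrcam* (ENSMUSG00000020598) chr12:44328885-44601964 on the plus strand, *L1cam* (ENSMUSG00000031391) chrX:73853778-73896105 on the minus strand, and *Nfasc* (ENSMUSG00000026442) chr1:132564690-132741797 on the minus strand. *Ncam1* (ENSMUSG00000039542) spans chr9:49502136-49798925 on the minus strand and *Alcam* (ENSMUSG00000022636) chr16:52248996-52454074 on the minus strand. *Cadm1* (ENSMUSG00000032076) spans chr9:47530173-47857637 on the plus strand, *Cadm2* (ENSMUSG00000064115) chr16:66655421-67620908 on the minus strand, *Cadm3* (ENSMUSG00000005338) chr1:173333258-173367695 on the minus strand, and *Cadm4* (ENSMUSG00000054793) chr7:24482023-24504539 on the plus strand. *Ncam1* and *Cadm1* share chromosome 9 with *Plxnb1*, at distances of 59.6 and 61.6 Mb. The union of exons falls into 9 blocks for *Cadm4* and 38 for *Nrcam*, and counts per gene do not tell their splice forms apart, such as the neuronal and glial neurofascins.

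The exons of 4 members overlap those of another gene, and since the strand setting of the counting is not stated, the reads of such stretches are uncertain. *Ncam1* overlaps *Gm11149* on the opposite strand over 417 bases, or 4.81% of its exons, and *Gm11149* measured a mean of 145.5 CPM. *Cadm2* overlaps *1700010K23Rik* on the opposite strand over 256 bases (2.61%), *Cadm3* overlaps *Ackr1* on the same strand over 361 bases (4.98%), and *L1cam* overlaps *Arhgap4* on the same strand over 100 bases (1.36%). *Chl1* overlaps no annotated exon of another gene.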

How the data were processed

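Poly(A) RNA of 3 WT and 3 *Plxnb1*−/− SC cultures was sequenced and grouped by the genotype in the labels. The authors trimmed reads (Trim Galore 0.6.5), aligned them to mm10 with Bowtie2 2.4.1, which places no read across an intron, removed duplicates with SAMtools 1.10, and deposited featureCounts exon counts, without normalization. The deposited FPKM values were used for 1 alternative and the order of levels only.

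Genes that reached 2 counts in 5 or more of the 6 libraries were compared with edgeR 4.0.16 (TMM, quasi-likelihood test, genotype alone) under R 4.3.3, with Benjamini-Hochberg adjustment over all 22318. SEs are the log2 fold change over the root of F. DESeq2 1.42.0 ran on the same genes. Exon lengths came from GENCODE vM21 annotation of GRCm38, which held 55141 of the 55401 identifiers. The authors counted reads on a later GENCODE release, so exon lengths and overlaps may differ from theirs. Python 3.11.15 with pandas 2.3.3 and matplotlib 3.10.9 made tables and figures. The tests were checked on simulated data.

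Members and lists (partners, other immunoglobulin genes, markers of 8 cell types) were chosen with earlier results of these data known. Named genes are all members, *Plxnb1*, and, of each partner or other immunoglobulin list, those called, the 2 largest and 2 smallest fold changes at a mean of at least 1 CPM, and the most abundant per kb, with the leading and defining markers, and the 3 genes most like a member, though not every gene this rule takes is printed. Sex-linked genes, *Cx3cr1*, and overlapping genes were added after seeing their values.

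Alternatives were DESeq2 size factors, upper-quartile factors, robust dispersion, DESeq2, limma 3.58.1 on log2(FPKM + 0.1), no filter, at least 1 CPM in 3 libraries, a replicate block, and each library left out. WT replicate 2 and *Plxnb1*−/− replicate 3 left out together, DESeq2 with each library left out, and the SC marker scale were chosen after seeing the data. Reads were not aligned again, and splice forms were left out because counts are per gene.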

Additional observations from a re-analysis of the deposited data

How the results depend on the processing

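edgeR called 8 genes and 0 members. The number of genes called was 335 with DESeq2 (154 higher, 181 lower), 3 with limma on log2(FPKM + 0.1), 296 with no filter on low counts, 5 with at least 1 CPM in 3 libraries, 23 without both WT replicate 2 and *Plxnb1*−/− replicate 3, and between 4 and 25 with each library left out in edgeR. DESeq2 called 938, 160, and 220 genes without WT replicates 1, 2, and 3, and 286, 121, and 46 without *Plxnb1*−/− replicates 1, 2, and 3, and 51 without both libraries. Members called were 1 with DESeq2, 1 with no filter, 1 with DESeq2 without both libraries, 0 with each library left out in edgeR, and 3 without WT replicate 1 and 1 without any other library in DESeq2. The cause was not tested.

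With the replicate block, 5 genes and 0 members were called, and *Chl1* had a log2 fold change of 0.45 (edgeR adjusted p = 0.171). Same-numbered WT and mutant libraries had r of −0.022, 0.0078, and 0.065 over genes, each centered within its genotype, so the numbers show no pairing.

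A tally covered 36 named genes, which are the members, *Plxnb1*, and the partners and other immunoglobulin genes taken by the naming rule. Markers and the genes most like a member were not in it. Of 802 alternative values, 738 kept direction and side of the threshold, 38 newly passed it, and 7 no longer passed it (all of *Plxnb1*). Another 10 changed sign in 3 genes near 0 among the fits. The other 9 moved on the SC marker scale by more than 1 SD, where *Ncam1* (−0.16), *Cadm1* (−0.10), and *Cadm4* (−0.05) changed sign too. With each library left out, edgeR gave *Cntnap1* (−0.0125 on all libraries) between −0.047 and 0.036, *Bace1* (−0.011) between −0.024 and 0.014, and *Fyn* (0.014) between −0.0060 and 0.043. DESeq2 gave *Cntnap1* 0.0023 without WT replicate 2 and 0.0356 without *Plxnb1*−/− replicate 1, *Bace1* 0.012 without WT replicate 3, and *Fyn* −0.0077 without *Plxnb1*−/− replicate 3 and −0.00098 without WT replicate 1. *Bace1* was at 0.0015 with limma. The cause was not tested. limma on log2(FPKM + 0.1) brought *Cadm2* to 0.02 and *Nfasc* to 0.05, since their FPKM values lie below the pseudocount of 0.1. Depth limited the detection of no member, since the lowest count was 211.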

Other observations

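Other Y-linked genes followed *Ddx3y*. *Uty*, *Kdm5d*, and *Eif2s3y* had 0 counts in every WT culture. In *Plxnb1*−/− replicates 1, 2, and 3, *Uty* measured 0.601, 0.662, and 14.5 CPM, *Kdm5d* 0.780, 1.17, and 30.2 CPM, and *Eif2s3y* 1.099, 1.72, and 34.2 CPM. All 4 genes failed the filter and were not tested.

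*Mag*, the myelin-associated glycoprotein gene, lay between 0.615 and 1.36 CPM in all 6 libraries. *Ngfr*, the p75 receptor of immature SCs, measured 212, 165, and 204 CPM in the WT cultures and 217, 248, and 249 CPM in the mutants, with every mutant culture above every WT culture (log2 fold change 0.30, or 0.20 without WT replicate 2, edgeR adjusted p = 0.286 with all libraries). *Mag* was picked after its values had been seen.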
